A study of Bos taurus with 16 samples.

Results

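The 8 Lidia bulls of the series were divided by the expression of leptomeningeal marker genes in their prefrontal cortex (PFC), and the 4 high-marker bulls were compared with the 4 low-marker bulls. The markers named were DCN, LUM, OGN, COL1A1 and SLC6A13. Values of 4 of these 5 genes could be read, since OGN lies at a locus of several genes and could not be told from its neighbours. The high-marker bulls were Agg_8314, Agg_8320, Agg_8324 and Agg_8162, and the low-marker bulls were Agg_8312, Agg_8165, Agg_8171 and Agg_8174. Together they are 8 of the 16 animals sequenced. Because the bulls were grouped on these very values, no p-value is given for any gene between the marker groups, and those differences are a description.

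All 8 were non-castrated males of the Lidia breed, labelled with the genotype aggressive, and each gave 1 library of polyadenylated RNA from a stranded kit. They were 3 years old, except low-marker bull Agg_8174, which was 4 years old. The other 8 animals of the series were Wagyu bulls of 3 years, kept as the docile cohort. All Lidia bulls had been incited to fight before slaughter, and the PFC was cut out by eye from the dorsal right side of the brain. By the study's sample table, bulls Agg_8314, Agg_8320, Agg_8324 and Agg_8312 came from the farm La Quinta and bulls Agg_8162, Agg_8165, Agg_8171 and Agg_8174 from Montealto. The high-marker bulls were thus 3 from La Quinta and 1 from Montealto, and the low-marker bulls 1 and 3 (two-sided Fisher's exact test, p = 0.486, the smallest possible being 0.0286). That p-value rests on counts of bulls, whereas those of the permutation tests and of limma below rest on the spread between animals.

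The leptomeninges are the pia and the arachnoid, the thin membranes on the surface of the brain. Their fibroblasts make fibrillar collagens and small leucine-rich proteoglycans, and the cells of the arachnoid barrier layer are joined by epithelial junctions and carry transporters for organic anions, sulphate and osmolytes. Meningeal cells are also known as a source of retinoic acid, bone morphogenetic proteins and CXCL12 for the cortex beneath. In bulk tissue, fewer cells of a type and less RNA per cell cannot be told apart.

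Expression is given as FPKM, fragments per kilobase of transcript, scaled to the mapped fragments of the library, summed over the transcripts of a gene and rescaled between animals. Differences are of group means on the log2(FPKM + 0.1) scale, high minus low, which understates the change of genes with low values. As estimated from coverage and FPKM, the libraries held between 13.7 M (Agg_8324) and 34.8 M fragments (Agg_8171) in the Lidia bulls, M standing for 10 to the power 6. The high-marker bulls had a mean 0.679 M above that of the low-marker bulls (exact two-sided permutation test, p = 0.829). The share of FPKM on mitochondrial genes was 3.49 percentage points lower in the high-marker bulls (p = 0.400 in the exact permutation test). 2 Lidia libraries stood apart. Bull Agg_8324 had the fewest estimated fragments of the breed, and 34 genes were listed at 0 in it although they had at least 1 FPKM in every other animal apart from Wagyu bull 5. Its scaling factor, by which its FPKM were divided, was the largest of the breed, 1.77. Bull Agg_8165, a low-marker bull, had the highest mitochondrial share, 38.4%, and the highest summed FPKM of the oligodendrocyte and microglial lists described further on. Its scaling factor was the smallest of the breed, 0.612. The high-marker group thus held the largest factor of the Lidia bulls and the low-marker group the smallest.

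DCN encodes decorin and LUM encodes lumican, both small proteoglycans that bind collagen fibrils. They are neighbours on chromosome 5 of ARS-UCD 1.2, DCN from 21014376 to 21053400 and LUM from 20971289 to 20978528, both on the minus strand. DCN stood at 11.9 FPKM in bull Agg_8314, 18.6 in Agg_8320, 15.6 in Agg_8324 and 22 in Agg_8162. In the low-marker bulls it stood at 6.63 in Agg_8312, 5.90 in Agg_8165, 5.79 in Agg_8171 and 6.69 in Agg_8174. The groups did not overlap, and the low-marker bulls differed among themselves by only 1.16-fold from lowest to highest. LUM was at 4.21, 6.12, 5.49 and 11.5 FPKM in Agg_8314, Agg_8320, Agg_8324 and Agg_8162. It was at 3.00, 1.42, 3.77 and 1.50 FPKM in Agg_8312, Agg_8165, Agg_8171 and Agg_8174. For LUM the nearest bulls of the groups, Agg_8314 and Agg_8171, lay close together.

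COL1A1, a chain of type I collagen (chromosome 19, 36457658 to 36474513), was at 1.94, 3.82, 3.40 and 3.19 FPKM in Agg_8314, Agg_8320, Agg_8324 and Agg_8162. In Agg_8312, Agg_8165, Agg_8171 and Agg_8174 it was at 1.09, 0.819, 1.37 and 1.10 FPKM. SLC6A13, a transporter of GABA and taurine found in meninges (chromosome 5, 107170136 to 107208656), was at 6.89, 8.36, 7.47 and 14.2 FPKM in the high-marker bulls in that order. Its values in the low-marker bulls were 1.50, 2.19, 2.38 and 3.50 FPKM. Bull Agg_8162 was the highest for DCN, LUM and SLC6A13, but not for COL1A1, where Agg_8320 was.

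**Figure D1:**
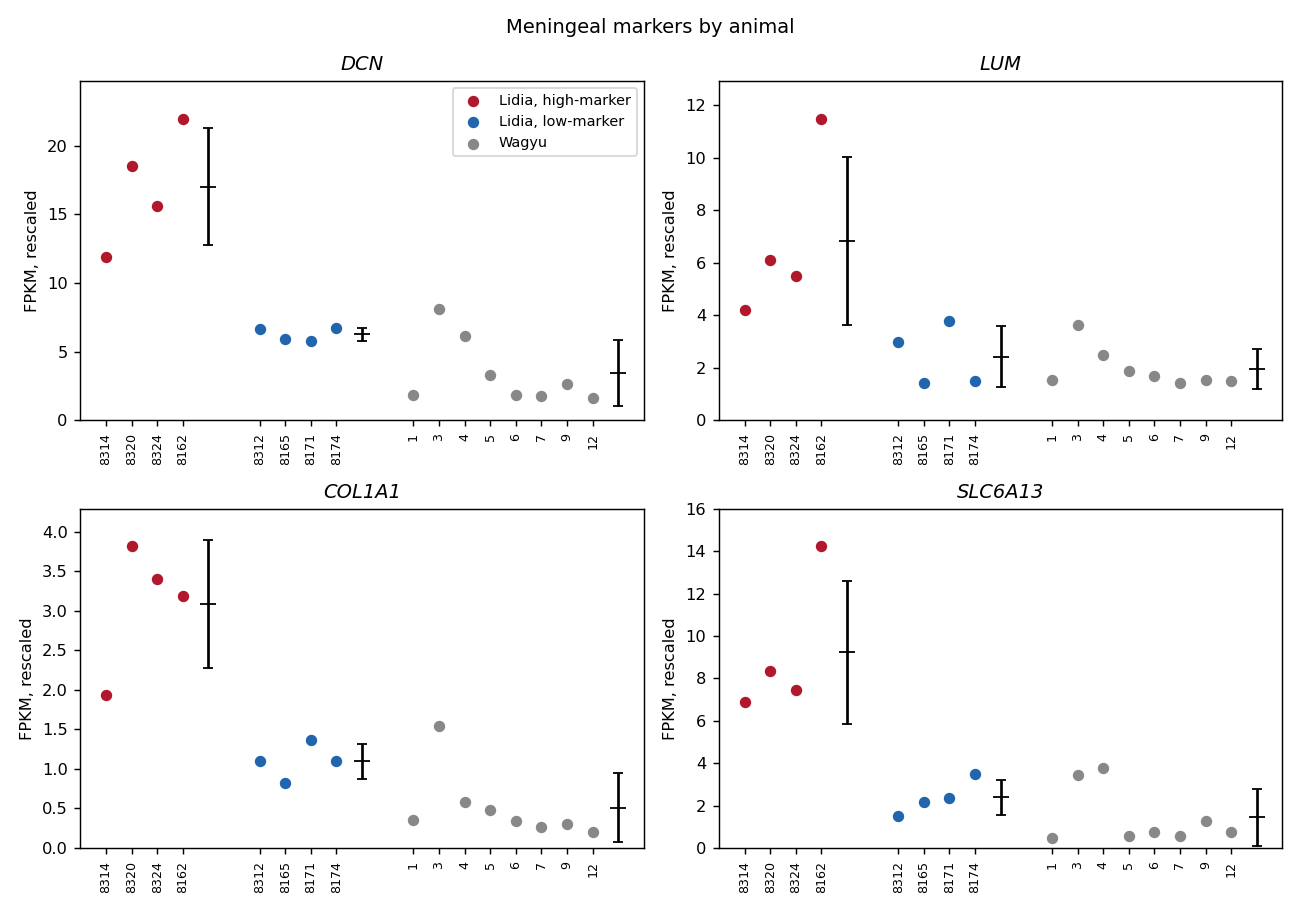
FPKM of the 4 markers in each animal (points), for high-marker Lidia (red), low-marker Lidia (blue) and Wagyu bulls (grey), with mean and SD in black and the numbers of the animals on the x axis. All 4 high-marker bulls lie above all 4 low-marker bulls for each marker, and the gap is narrowest for LUM, between 4.21 and 3.77 FPKM.

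The mean of the 4 markers on the log2(FPKM + 0.1) scale served as a marker score. It was 2.38 in Agg_8314, 2.98 in Agg_8320, 2.80 in Agg_8324 and 3.39 in Agg_8162, against 1.33 in Agg_8312, 1.07 in Agg_8165, 1.59 in Agg_8171 and 1.39 in Agg_8174. Bull Agg_8314 with 2.38 and bull Agg_8171 with 1.59 were thus the nearest on either side of the division. The Wagyu bulls had scores of 1.87 (bull 3) and 1.36 (bull 4), while the other 6 lay between -0.13 and 0.35. Wagyu bull 3 therefore lay above all 4 low-marker Lidia bulls, and bull 4 above 2 of them.

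Among 16587 genes whose mean over the animals reached 0.1 FPKM, 616 (3.71%) were higher in all 4 high-marker bulls than in any low-marker bull, and 325 (1.96%) were lower in all of them. When a difference of at least 1 on the log2 scale was also asked, 197 genes (1.19%) were higher and 21 (0.127%) lower. The median difference over all genes was 0.01. On the FPKM as deposited, without rescaling between animals, the median was 0.35 and the split was 840 higher and 17 lower, so that 98.0% of such genes were higher against 65.5% after rescaling. With farm as a term, 1288 genes were higher and 1027 lower. Both counts rose, and 55.6% of such genes were higher, against 65.5% without that term. Whether the term in itself makes separation easier was not tested. Without bulls Agg_8165 and Agg_8324, 1348 were higher and 1045 lower, among fewer animals.

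Gene names were at hand only for genes of the study's own table of differences between breeds. Of its genes higher in Lidia, 805 could be paired with a single gene and were measured, and of these 185 (23.0%) were also higher in the high-marker bulls without overlap, and 10 were lower. Of its 243 genes lower in Lidia that could be paired, 5 were higher and 10 lower. Among the 15539 other genes, 426 (2.74%) were higher and 305 (1.96%) lower. The gene lists below hold table genes only, so their members had been chosen on values of these same Lidia bulls and of the Wagyu bulls.

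Genes of the fibroblast matrix were higher in the high-marker bulls. Of 30 genes listed 25 had a name and passed the filter, and 17 of the 25 were higher without overlap and 0 lower. The share was 3.71% of all genes, but 23.0% of the table genes higher in Lidia, to which the members of this list belong, and the latter is the nearer background for it and for the transporter, junction, retinoid, growth factor and mesenchymal lists below, which hold such genes only. Their median difference was 0.95. POSTN, which encodes periostin (chromosome 12, 24218976 to 24254116), differed most, by 3.65 on the log2 scale. It was at 8.58, 14.5, 9.67 and 20.2 FPKM in Agg_8314, Agg_8320, Agg_8324 and Agg_8162. It was at 0.392, 0.293, 1.12 and 4.23 FPKM in Agg_8312, Agg_8165, Agg_8171 and Agg_8174. The groups were apart, but the low-marker bulls spanned 14.5-fold, with Agg_8174 the highest of them.

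FBLN1, encoding fibulin 1, stood at 30.0 ± 4.82 FPKM (SD, n = 4) in the high-marker bulls and 6.18 ± 1.97 (SD, n = 4) in the low-marker bulls. EFEMP1, another fibulin, stood at 18.7 ± 4.75 and 4.38 ± 1.26 FPKM (SD, n = 4 each). COL1A2, the partner chain of COL1A1, stood at 7.95 ± 1.78 and 2.19 ± 0.823 FPKM (SD, n = 4 each). These 3 genes lay further apart between groups than their spread within groups. COL3A1, type III collagen, differed by 1.79 and COL6A1, type VI collagen, by 1.50 on the log2 scale, both without overlap.

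The 8 matrix genes whose groups overlapped included MGP, a calcification inhibitor also made by vessel walls, MFAP2 and BGN. In all 3 bull Agg_8165 was the highest of the low-marker bulls, with 14.7 FPKM of MGP, 2.52 of MFAP2 and 12.5 of BGN. ELN, elastin, was at 3.06 ± 0.477 and 2.56 ± 0.686 FPKM (SD, n = 4 each), within the spread of the bulls. Without bull Agg_8165, 21 of the 25 matrix genes were higher without overlap.

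Transporters of the meningeal barrier had a median difference of 1.71 on the log2 scale. Of 12 listed genes 9 were measured, and 8 of these 9 were higher in the high-marker bulls without overlap. SLC13A4, a sodium sulphate cotransporter (chromosome 4, 99483644 to 99526129), was at 10, 12, 11 and 15 FPKM in Agg_8314, Agg_8320, Agg_8324 and Agg_8162. In Agg_8312, Agg_8165, Agg_8171 and Agg_8174 it was at 0.714, 0.498, 1.84 and 3.55 FPKM. The high-marker bulls spanned 1.49-fold and the low-marker bulls 7.14-fold.

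SLC22A8, the organic anion transporter OAT3 (chromosome 29, 41302545 to 41323004), was at 4.76, 5.29, 6.18 and 6.29 FPKM in the high-marker bulls. It was at 0.226, 0.486, 1.01 and 1.68 FPKM in Agg_8312, Agg_8165, Agg_8171 and Agg_8174. SLC26A2, another sulphate transporter, was higher by 2.13. SLC13A3, a dicarboxylate carrier, and SLC22A6, known as OAT1, were higher by 1.71 and 1.42. The exception was SLC6A12, a betaine carrier, with a difference of 0.52 and overlapping groups.

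Epithelial junction and keratin genes of the arachnoid followed, with 6 of 9 measured members higher without overlap, 0 lower, and a median of 1.53. KRT8 encodes a simple epithelial keratin and was at 1.48, 1.39, 1.27 and 3.33 FPKM in Agg_8314, Agg_8320, Agg_8324 and Agg_8162. It was at 0.0150, 0.105, 0.129 and 0.473 FPKM in Agg_8312, Agg_8165, Agg_8171 and Agg_8174. KRT19, another such keratin, was at 2.79, 1.68, 2.47 and 10.6 FPKM in the high-marker bulls, so that Agg_8162 stood well above the rest. CDH1, E-cadherin, the adhesion protein of epithelia, was at 2.16 ± 0.861 and 0.332 ± 0.222 FPKM (SD, n = 4 each). DPP4, a membrane peptidase listed with them, differed by 2.12. Desmosomal DSG2 was higher by 1.34. CLDN11, a tight junction protein that oligodendrocytes also make, did not follow, with a difference of -0.04 and its highest value, 54.8 FPKM, in bull Agg_8165.

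**Figure D2:**
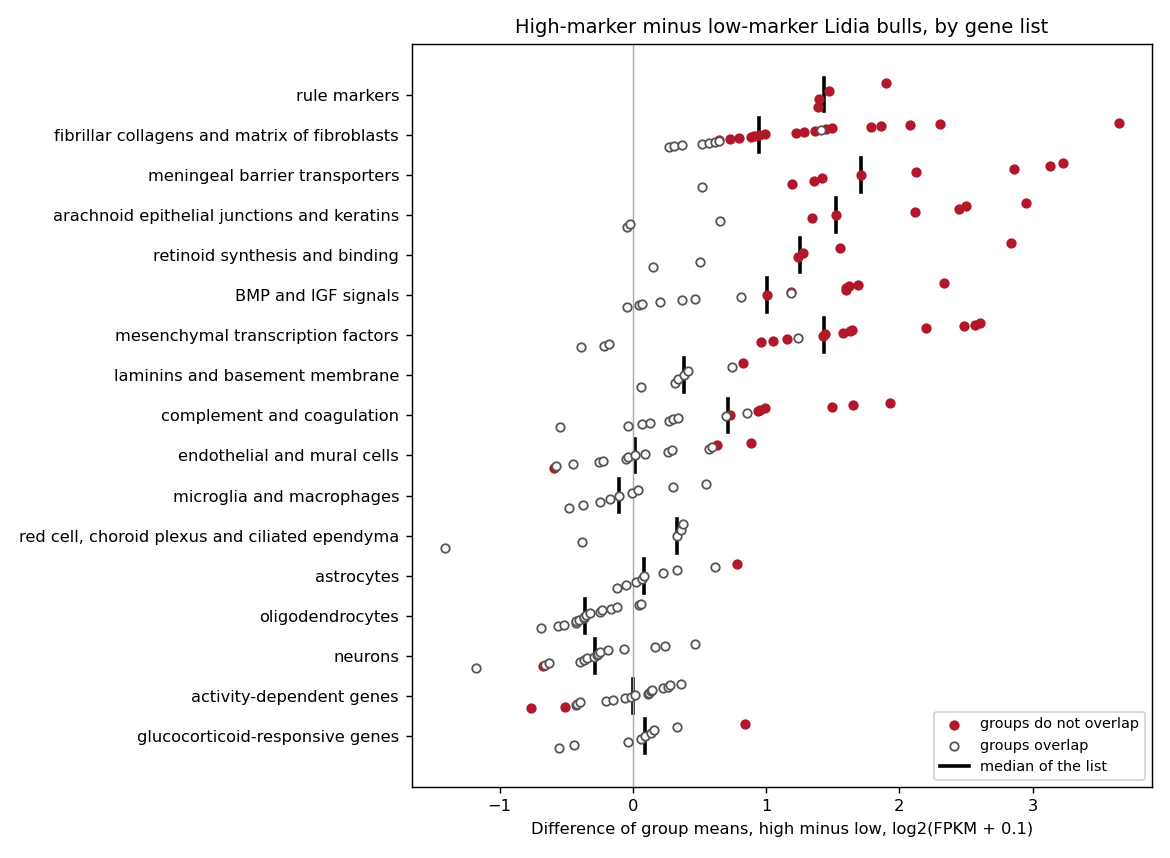
Difference between high-marker and low-marker Lidia bulls on the log2(FPKM + 0.1) scale for each measured gene (points) of 17 gene lists, filled where the groups do not overlap, with the list median as a bar. The barrier transporters have a median of 1.71, while the medians of endothelial cells, microglia, neurons and oligodendrocytes lie between -0.36 and 0.01.

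Genes of retinoid synthesis and binding were higher without overlap in 4 of 6 members, with a median of 1.26. CRABP2, a cellular retinoic acid binding protein (chromosome 3, 14124443 to 14130828), was at 12.4, 15.2, 12.6 and 24.2 FPKM in Agg_8314, Agg_8320, Agg_8324 and Agg_8162. It was at 0.906, 1.28, 2.46 and 6.23 FPKM in Agg_8312, Agg_8165, Agg_8171 and Agg_8174. As for SLC13A4 and SLC22A8, Agg_8174 was the highest low-marker bull and Agg_8171 the next. CRABP1, its paralogue, reached 36.2 ± 9.02 against 15.1 ± 4.60 FPKM (SD, n = 4 each), and its highest low-marker value, 19.6 FPKM, was in Agg_8165. ALDH1A1 and ALDH1A3, which make retinoic acid, were higher by 1.24 and 1.55. RARG, a retinoic acid receptor, differed by 0.15 with overlapping groups.

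Of 15 measured genes of bone morphogenetic protein and insulin-like growth factor signalling, 7 were higher without overlap and 0 lower, with a median of 1.01. Among the ligands, IGF2 (chromosome 29, 49394907 to 49422468) was at 23.6, 27.8, 31.6 and 32.8 FPKM in Agg_8314, Agg_8320, Agg_8324 and Agg_8162. It was at 3.65, 4.77, 5.82 and 9.76 FPKM in Agg_8312, Agg_8165, Agg_8171 and Agg_8174. The lowest high-marker bull was thus well above the highest low-marker bull. The bone morphogenetic proteins BMP4, BMP6 and BMP5 were higher by 1.69, 1.62 and 1.60. IGFBP2, a binding protein of the growth factors, was higher by 1.60, and the chemokine CXCL12 by 1.19. Among genes that respond to these ligands, MSX2 was higher by 1.01 without overlap and MSX1 differed by 1.19 with overlap, while ID1, ID3, ID4 and BAMBI overlapped, with differences between -0.04 and 0.47.

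Mesenchymal transcription factors were higher without overlap in 12 of 16 measured members, with a median of 1.44. With a pseudocount of 1 the medians were 0.50 for these factors, 0.85 for the junction genes and 1.05 for the transporters. OSR1, a zinc finger factor of mesenchyme (chromosome 11, 79405644 to 79413111), was at 2.65, 2.86, 2.53 and 4.57 FPKM in the high-marker bulls. It was at 0.274, 0.159, 0.615 and 0.943 FPKM in Agg_8312, Agg_8165, Agg_8171 and Agg_8174. FOXC2, a forkhead factor of the embryonic mesenchyme, stood at 2.33 ± 0.719 and 0.393 ± 0.328 FPKM (SD, n = 4 each). SIX2, a homeobox factor, was at 0.666 to 1.11 FPKM in the high-marker bulls, and in the low-marker bulls was listed at 0 in Agg_8165 and at 0.0271, 0.156 and 0.228 FPKM in Agg_8312, Agg_8171 and Agg_8174. FOXD2 was listed at 0 in Agg_8312 and Agg_8165. Its mean was 0.632 FPKM in the high-marker and 0.0718 in the low-marker bulls, and its Wagyu median was 0.0132. FOXD2, SIX2 and the transporter SLC16A12 thus passed the filter, a mean over all 16 animals, only through the high-marker bulls. Counting such members as higher is partly circular, and how many there were was not counted. ZIC1, ZIC2 and ZIC4, zinc finger factors expressed in meninges, were higher by 1.63, 0.96 and 1.43. FOXF1, FOXF2 and TWIST2 had their highest value in bull Agg_8165 and differences between -0.39 and -0.18, with overlap.

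Of 16 complement and coagulation genes, 7 were higher without overlap, beside 3.71% of all genes and 23.0% of the table genes higher in Lidia, and the median was 0.71. THBD, thrombomodulin, differed by 1.93 and PROS1, protein S, by 1.65. The complement genes C7, C1S and C1R were higher by 1.50, 0.99 and 0.96. SERPING1, the inhibitor of the C1 proteases, was higher by 0.94 and C3 by 0.73. Basement membrane genes were separated in 1 of 7 members, LAMA2, by 0.83, and the median of the 7 was 0.38.

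The named genes outside the lists with the largest differences were C25H16orf89, SLC5A5 and THSD4. C25H16orf89 was at 14.4, 17.9, 19.9 and 22.3 FPKM in Agg_8314, Agg_8320, Agg_8324 and Agg_8162. Its values in Agg_8312, Agg_8165, Agg_8171 and Agg_8174 were 0.899, 1.01, 2.65 and 4.50 FPKM. SLC5A5, the sodium iodide symporter, was at 1.08, 1.49, 1.54 and 2.05 FPKM in the high-marker bulls, and at most 0.315 FPKM in the low-marker bulls. THSD4, a protein of extracellular microfibrils, was higher by 2.57.

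Within the groups the bulls were not alike. Over the 616 genes higher in the high-marker bulls, Agg_8162 was the highest of the 4 in 347 (56.3%), and Agg_8314 the lowest of the 4 in 298 (48.4%). Among the low-marker bulls Agg_8174 was the highest in 245 (39.8%) and Agg_8171 in 191 (31.0%). For DCN, Agg_8174 was also the highest low-marker bull, at 6.69 FPKM, but Agg_8171 was the lowest, at 5.79 FPKM. The low-marker values of DCN spanned only 1.16-fold. Those of other genes spanned 7.14-fold for SLC13A4, 7.43-fold for SLC22A8, 6.88-fold for CRABP2, 5.92-fold for OSR1 and 2.67-fold for IGF2. For each of those 5 genes bull Agg_8174 was the highest low-marker bull and Agg_8171 the next. Those 5 were picked after their values were seen, and other list members had another order. The highest low-marker bull was Agg_8165 for CRABP1, Agg_8171 for FMOD and Agg_8312 for COL6A2, PCOLCE and C1S. Over the 616 genes Agg_8312 was the highest low-marker bull in 88 (14.3%) and Agg_8165 in 92 (14.9%). The median deviation of the barrier transporters from the mean of the 8 bulls was -1.36 in Agg_8312, -1.21 in Agg_8165, -0.69 in Agg_8171 and -0.25 in Agg_8174. Bull Agg_8174 was also the oldest animal, and with 1 bull of that age age and animal cannot be told apart.

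**Figure D3:**
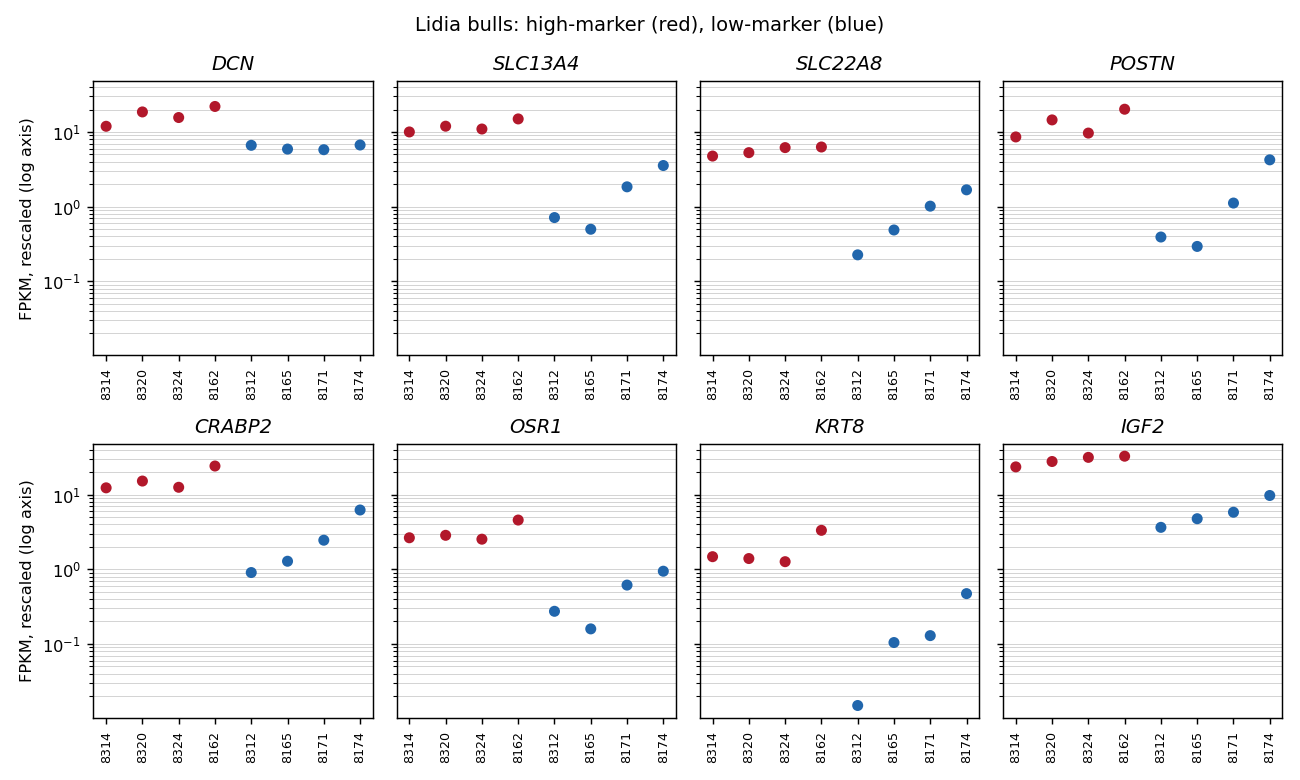
FPKM on a log axis shared by all panels for 8 genes in each Lidia bull, high-marker in red and low-marker in blue. In the low-marker bulls DCN is level at 5.79 to 6.69 FPKM, whereas SLC13A4 runs from 0.498 to 3.55 and CRABP2 from 0.906 to 6.23 FPKM.

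Both farms held bulls of each marker group. At La Quinta the 3 high-marker bulls were set against bull Agg_8312 alone, and at Montealto bull Agg_8162 alone against the 3 low-marker bulls. In the matrix list 25 of 25 members were higher in all 3 high-marker bulls at La Quinta, where 33.1% of all genes were, and 0 were lower in all 3, where 29.9% of all genes were. At Montealto 23 of 25 were higher in Agg_8162 than in the other bulls, where 22.7% of all genes were, and 0 were lower, where 22.2% of all genes were. The 9 transporters were higher in 9 of 9 cases at both farms. Median differences of the transporters were 2.14 at La Quinta and 1.79 at Montealto, those of the matrix 0.92 and 1.42. SLC13A4 differed by 3.76 at La Quinta and 3.22 at Montealto, and IGF2 by 2.88 and 2.32. With 1 bull on one side of each farm, these values were not tested.

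Markers of other brain cells differed less. Among 15 endothelial and mural genes, 2 were higher and 1 lower without overlap, and the median was 0.01. For this and the next lists, the share of all genes was 3.71% higher and 1.96% lower. Among the table genes higher in Lidia, to which all 15 belong, the shares were 23.0% and 1.24%. Among the table genes lower in Lidia they were 2.06% and 4.12%. JAM2, a junctional adhesion molecule, was at 16.3 ± 2.53 and 8.78 ± 1.41 FPKM (SD, n = 4 each), and PDGFRB, a receptor of pericytes and fibroblasts, was higher by 0.63. SOX17, an arterial endothelial factor, was lower by 0.59, with its highest value in bull Agg_8165. CLDN5, the tight junction protein of brain endothelium, was at 21.8 to 31.5 FPKM in the 7 other bulls and at 98.4 in Agg_8165. The summed FPKM of the list was 76.9 to 97.8 in the high-marker bulls and 63.0 to 184 in the low-marker bulls. None of its members was listed at 0 in any Lidia bull.

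Microglial genes were separated in 0 of 9 members, with summed FPKM of 38.4 to 50.5 in the high-marker bulls and 39.5 to 71.1 in the low-marker bulls. Of 5 genes of red cells, choroid plexus and ciliated ependyma, 0 were separated. HBB, a globin chain, was at 0.336 to 4.97 FPKM in the high-marker bulls and 0.573 to 1.81 in the low-marker bulls. TTR, transthyretin of the choroid plexus, was at 1.06 to 11.9 and 1.38 to 18.9 FPKM. Of 9 astrocyte genes 1 was separated, and the median of the list was 0.08. GFAP, the intermediate filament of astrocytes, was at 192 to 280 FPKM in the high-marker bulls and 198 to 299 in the low-marker bulls.

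Neuronal genes had a median difference of -0.28, and NPY, the neuropeptide of cortical interneurons, was the 1 of 16 separated. It was at 33.9, 36.8, 30.5 and 31.9 FPKM in Agg_8314, Agg_8320, Agg_8324 and Agg_8162, and at 44.7, 89.3, 39.6 and 50.6 FPKM in Agg_8312, Agg_8165, Agg_8171 and Agg_8174. The summed FPKM of the neuronal list was 469 to 580 in the high-marker bulls and 555 to 684 in the low-marker bulls. Oligodendrocyte genes had a median of -0.36 with 0 of 16 separated, and without bull Agg_8165 the median was 0.01. Their summed FPKM was 554 in Agg_8165 and 160 to 235 in the 7 other bulls. Without rescaling between animals the medians of microglia, oligodendrocytes and neurons were 0.26, 0.01 and 0.08 in place of -0.11, -0.36 and -0.28, while the median of all genes shifted by 0.35. The part that tissue composition played in these differences was not tested.

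**Figure D4:**
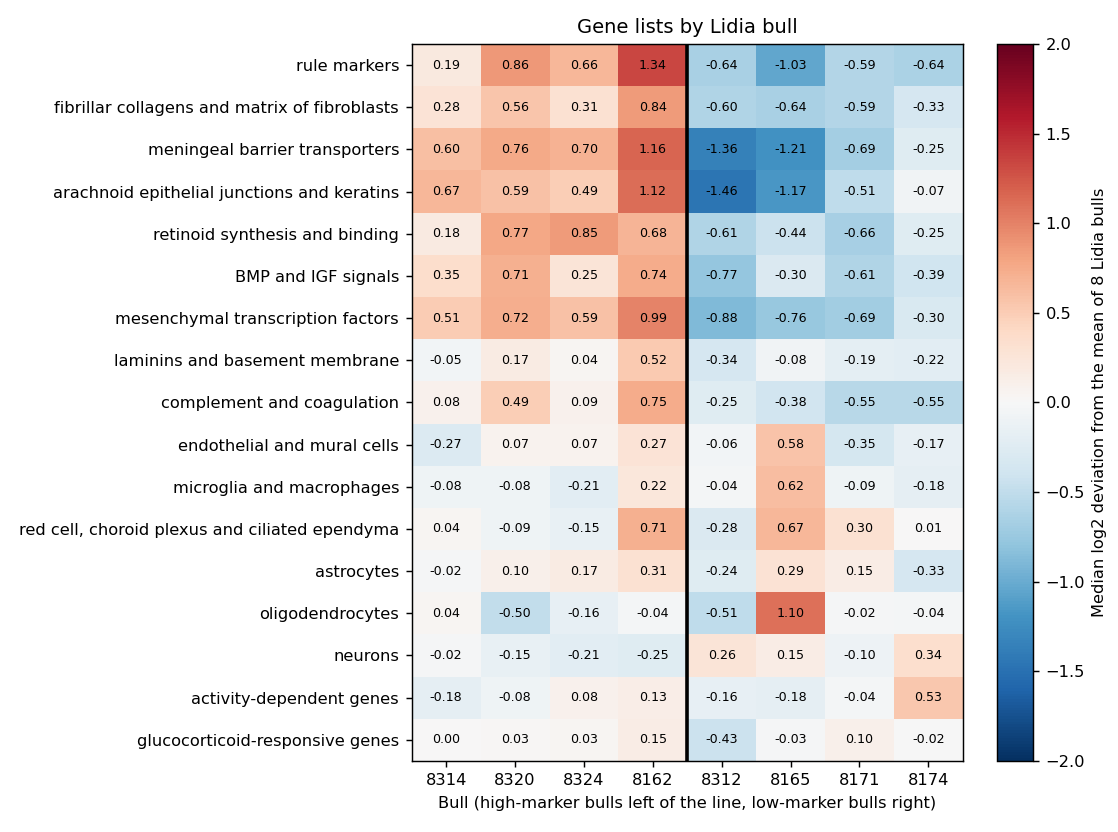
Median deviation of each gene list from the mean of the 8 Lidia bulls, in log2(FPKM + 0.1), for each bull, with high-marker bulls left of the line. The transporter list runs from -1.36 in Agg_8312 to 1.16 in Agg_8162, and bull Agg_8165 stands out with 1.10 for oligodendrocytes, 0.62 for microglia and 0.58 for endothelial cells.

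Among 18 activity-dependent genes, which neurons switch on when they fire, 0 were higher and 2 were lower without overlap, and the median was 0.00. The lower share was 1.96% of all genes and 4.12% of the table genes lower in Lidia. EGR4, an immediate early transcription factor, was lower by 0.76, and NPTX2, a secreted synaptic pentraxin, was lower by 0.51. NPTX2 was at 2.65 to 3.20 FPKM in the high-marker bulls, at 3.38, 3.47 and 3.50 in Agg_8312, Agg_8165 and Agg_8171, and at 7.25 in Agg_8174. Of 9 glucocorticoid-responsive genes, TXNIP, a thioredoxin inhibitor, was separated, at 13.8 ± 3.48 and 7.52 ± 1.06 FPKM (SD, n = 4 each). FKBP5 and SGK1, standard targets of the receptor, overlapped with differences of 0.16 and 0.33.

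Genes lower in the high-marker bulls often rested on bull Agg_8165, which had the highest value of the low-marker bulls in 210 of the 325 (64.6%). Those with a name and the largest differences were CYSRT1, lower by 1.40, FAM229A by 1.07 and OTOS by 1.02. OTOS, which encodes otospiralin, was at 315 FPKM in Agg_8165 and at 47.5 to 59.7 in the other low-marker bulls, against 35.1 to 43.0 in the high-marker bulls. Without Agg_8165 its difference was -0.38. TBX19, a T-box factor, changed less without that bull, from -0.83 to -0.76. In 6 of the 325 genes bull Agg_8324 was listed at 0, among them the largest difference, gene ENSBTAG00000053775, which was at 24.7 to 33.7 FPKM in the other high-marker bulls and at 35.0 to 210 in the low-marker bulls.

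The Wagyu bulls played no part in the grouping, so they were used to ask which genes varied with the marker score in other animals. Their values did enter the comparison of breeds from which the list members were drawn. A slope of each gene on the score of the same 4 markers was fitted with limma over the 8 Wagyu bulls, in log2(FPKM + 0.1) per unit of score. Of 16583 genes, 62 (0.374%) rose with the score (adjusted p up to 0.05) and 4 (0.0241%), none with a name, fell. At an unadjusted p under 0.05, 1101 genes (6.64%) rose and 466 (2.81%) fell. The calls depended on single animals. Without bull 12 there were 0 rising genes, without bull 3 there was 1, without bull 1 there were 4 and without bull 7 there were 5, and the FPKM as deposited gave 7. The scores of bulls 3 and 4 lie apart from the rest, and without both, 0 genes were called, 439 had an unadjusted p under 0.05 and the smallest adjusted p was 1. Because the scores fall into 2 clusters, no correlation over the Wagyu bulls is given.

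Several genes that separated the Lidia bulls rose with the score in Wagyu. COL3A1 rose by 1.39 ± 0.111 (SE, limma, adjusted p = 0.0128) and AEBP1, a collagen-binding protein, by 0.89 ± 0.0704 (adjusted p = 0.0128 in limma). FBLN1 rose by 1.45 ± 0.156, and IGF2 by 2.08 ± 0.235, each with a limma adjusted p of 0.0259. IGF2 was at 0.559 to 12.9 FPKM in the Wagyu bulls, whose highest value was above all low-marker Lidia bulls and below all high-marker ones. OSR1 rose by 1.86 ± 0.276 (limma, adjusted p = 0.0468) and BMP6 by 1.02 ± 0.136 (adjusted p = 0.0333). Each of these 6 calls, and those of MYL9, CD93 and ELN below, was lost without bull 12 alone and without bull 3 alone. SLC13A4, CRABP2 and POSTN had slopes of 2.05, 1.76 and 1.80 and limma adjusted p of 0.0713, 0.0658 and 0.329, and so did not pass. The slope of POSTN was -0.03 in the 6 bulls other than 3 and 4.

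By list, beside the 0.374% of all genes called rising, 7 of 25 matrix genes were called rising and 0 falling, 1 of 9 transporters, 0 of 9 junction genes, 4 of 15 growth factor genes and 2 of 16 mesenchymal factors. The nearer background, the table genes higher in Lidia, is not given here for the Wagyu calls and slopes. The counts are therefore set only against all genes. Median slopes of the lists just named were 0.59, 0.59, 0.30, 0.57 and 0.61. In the 6 bulls other than 3 and 4 they were 0.32, 0.67, 0.13, 0.26 and 0.49. Of the retinoid genes 0 of 6 were called, with a median slope of 0.44 and positive slopes in 6 of 6. In the 6 bulls their median was -0.02, with positive slopes in 3 of 6. Endothelial and mural genes, whose Lidia median was 0.01, had a Wagyu median slope of 0.57, with positive slopes in 15 of 15 and 2 called, MYL9, a smooth muscle myosin light chain, and CD93, an endothelial receptor. MYL9 rose by 1.16 ± 0.133 (limma, adjusted p = 0.0259) in Wagyu, and its Lidia difference was 0.27 with overlapping groups. ELN rose by 1.09 ± 0.144 (limma, adjusted p = 0.0322), and its Lidia difference was 0.27. Whether Lidia and Wagyu differ in this respect was not tested, and the Lidia list held the high values of bull Agg_8165. Other lists had positive slopes too, where 47.2% of all genes had them. They were seen in 16 of 16 complement and coagulation genes (median 0.57), 9 of 9 microglial genes (median 0.40) and 9 of 9 astrocyte genes (median 0.34). In the 6 bulls the medians of these 3 lists were 0.40, 0.05 and -0.27. That of the endothelial and mural genes was 0.57 in the 6 bulls, with positive slopes in 14 of 15. Neuronal and oligodendrocyte genes had median slopes of -0.08 and -0.17, with 0 called.

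**Figure D5:**
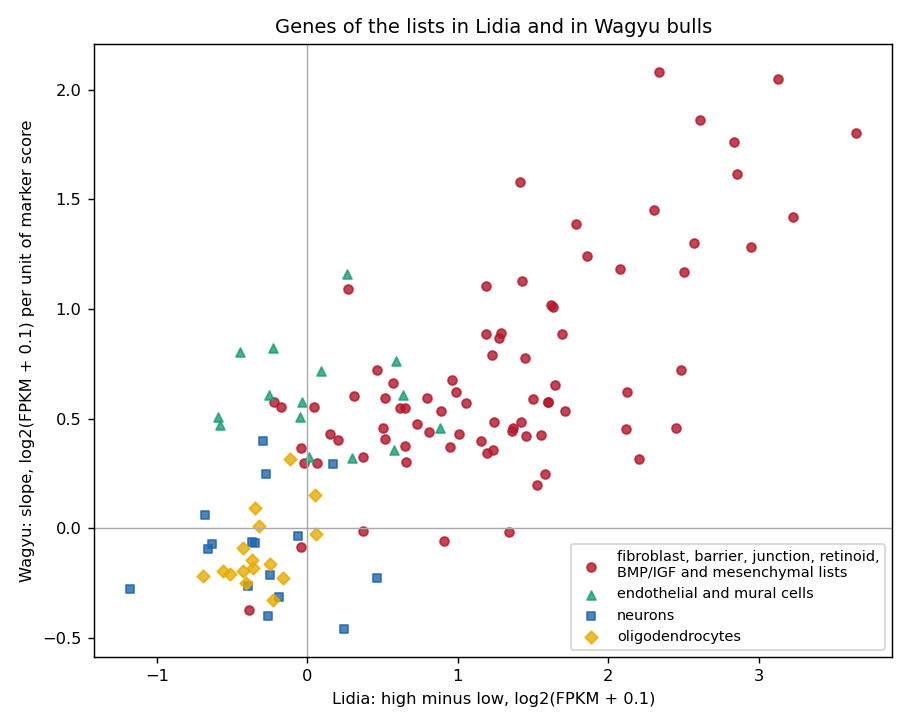
For genes of the lists, the Lidia difference between marker groups (x axis, log2(FPKM + 0.1)) against the slope on the marker score in the 8 Wagyu bulls (y axis, per unit of score). FBLN1 lies at 2.31 and 1.45, while the endothelial and mural genes all have positive slopes around a Lidia median of 0.01.

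Of the 612 genes other than the markers that were higher in the high-marker Lidia bulls, 238 (38.9%) rose in Wagyu at an unadjusted p under 0.05, where 6.64% of all genes did, and these are 21.6% of the 1101. A positive slope was seen in 82.2% of the 612, against 47.2% of all genes. In the 6 Wagyu bulls other than 3 and 4 it was seen in 67.6%, against 49.2% of all genes. Of the 193 genes that were higher by at least 1 on the log2 scale, 97.9% had a positive slope over the 8 Wagyu bulls. In the 6 bulls 70.5% of the 193 had one, against 49.2% of all genes. At an unadjusted p under 0.05 over the 8 bulls, 131 of the 193 (67.9%) rose. Of the 325 lower genes 10 (3.08%) fell at that level, where 2.81% of all genes did, and 6 rose. A positive slope was seen in 44.0% of the 325, against 47.2% of all genes, and in the 6 bulls in 22.2%, against 49.2% of all genes. In those 6 bulls the highest score, 0.35, was that of bull 5, with bull 9 next at 0.32. Bull 5 had only 7.67 M fragments. It was listed at 0 for 8 of the 325 lower genes, as high-marker bull Agg_8324 was for 6. How far the slopes in the 6 bulls rest on the library of bull 5 was not tested.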

How the data were processed

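PFC libraries of 16 bulls, 8 a breed, were read from both ends at 100 bases. The authors trimmed reads with PRINSEQ, mapped them with STAR 2.7.3a to ARS-UCD 1.2 and estimated 43984 Ensembl transcripts of 27607 genes with Cufflinks 2.2.1. SAMtools 0.1.18 and Cuffdiff are also named in the submitters' notes. The deposited values are FPKM and coverage for each transcript, with no scaling between animals. No read counts are among the values used, so no counting interval could be given. The number of fragments was taken from the ratio of coverage to FPKM, each fragment counting as 200 bases.

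FPKM was summed per gene and divided by median-of-ratios factors over 15998 genes present in all 16 animals. A gene was kept if its mean reached 0.1 FPKM, on log2(FPKM + 0.1). Groups overlap unless all 4 bulls of one group exceed all 4 of the other. Wagyu slopes were fitted with limma 3.58.1 (lmFit, eBayes with trend, two-sided, Benjamini-Hochberg over all genes but the markers) in R 4.3.3, after a run on simulated data. Other steps used Python 3.11.15, numpy 2.4.6, scipy 1.17.1 and pandas 2.3.3. The design had set a score over 5 markers, but OGN could not be paired, so 4 were used.

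Symbols came from loci of the study's table of differences between breeds. Of 1197 entries 1050 matched a single gene in start and end, 147 span several genes, and all 50 entries named by an Ensembl identifier matched it. The table fixes the direction of the named genes between breeds, not between marker groups. The RefSeq table gave 0 matches by Ensembl identifier. The bulls, gene lists and markers were chosen with earlier results of these data known. Genes named are the markers, up to 4 members a list with the largest difference, the 10 largest differences in each direction and the 5 smallest p in Wagyu in each direction, and further members of the 17 lists chosen after their values were seen. Farm was taken from the study's sample table. Alternatives were other scalings, pseudocounts of 1 and 0.01, a mean of at least 1 FPKM, no filter, each animal left out, farm, mitochondrial share, no variance trend and a score over DCN and LUM. Leaving out 2 Wagyu bulls together, or 2 Lidia bulls together, was added after seeing the data. Some genes of the lists are counted but not reported here by name.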

Additional observations from a re-analysis of the deposited data

Results flagged for a closer look

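Of 288 values tested, in groups of 4 Lidia bulls or of the 8 Wagyu bulls, 26 held an animal far from the others of its group, where chance gives about 5% for each group. The values are FPKM unless stated.

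Among the high-marker bulls, Agg_8162 stood above the rest with 3.33 for KRT8 and 3.78 for EMP3, a membrane protein also made by non-neural cells. Bull Agg_8314 stood below with 2.57 for BMP6, and bull Agg_8320 with 35.1 for OTOS, where the other 3 were at 42.7 to 43.0. ENSBTAG00000053775 was listed at 0 in bull Agg_8324.

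Among the low-marker bulls, Agg_8165 stood above the rest with 5.70 for LAMB2, a laminin chain, and 2.28 for SOX17. It did so with 12.1 for PTPN6, a phosphatase of immune cells, and 22.3 for AIF1, a microglial protein. The same held for 18.8 of NKX6-2, an oligodendrocyte factor, 231 of MT2A, a metallothionein, 15.1 of FAM229A and 315 of OTOS. Bull Agg_8174 stood apart with 7.25 for NPTX2.

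In the Wagyu bulls, bull 4 stood above the rest with 1.01 for KRT8, 0.571 for THSD4 and 0.0541 for ENSBTAG00000021408. Bull 3 did so with 0.856 for BMP5 and 0.849 for C7, and stood below with 70.6 for MLLT11. Bull 1 was high for NKX6-2, with 7.62. Bull 5 was low for TP53I13, with 1.11, was listed at 0 for ENSBTAG00000053775, had the fewest fragments, 7.67 M, the highest mitochondrial share, 39.3%, and the largest scaling factor, 2.19.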

How the results depend on the processing

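The difference between marker groups was followed for 226 named genes over all alternatives. It moved by more than the spread between bulls in 137 values, 75 of them on the FPKM as deposited. It stayed within that spread in 3425. Of these values 0 were counted as reversed, but the sign of some genes with overlapping groups did change. TTR went from -1.41 to 0.07 with farm as a term, and JUP from -0.02 to 0.34 on the FPKM as deposited. The count of genes higher in the high-marker bulls was 350 with a mean of at least 1 FPKM, 1288 with farm as a term, 1348 without bulls Agg_8165 and Agg_8324, and 742 to 1176 with each bull left out. Of lower genes there were 17 as deposited, 1027 with farm, 1045 without the 2 bulls, and 435 to 811 with each bull left out. A group of 3 separates from 4 more readily than a group of 4 does. Whether farm as a term does the same was not tested.

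In Wagyu, rising genes numbered 7 as deposited, 100 with a pseudocount of 1, 41 with 0.01, 10 with a score over DCN and LUM, 35 with mitochondrial share as a covariate, 0 without bulls 3 and 4, and 0 to 60 with each bull left out. It was 0 without bull 12, 1 without bull 3, 4 without bull 1, 5 without bull 7, 7 without bull 6 and 10 without bull 9. Falling genes numbered 1 as deposited, 2 with a mean of at least 1 FPKM or no variance trend, 0 with DCN and LUM, with mitochondrial share and without bulls 3 and 4, and 0 to 2 with each bull left out. Of the slopes of named genes under alternatives, 3691 kept their call, 218 no longer passed, 33 newly passed and 0 reversed. The cause was not tested. No paired analysis was possible because the groups share no replicate numbers. With 4 bulls a group and no counts, precision rests on the spread between animals.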
